A study of Homo sapiens with 12 samples.

Results

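The genes described are the SRSF genes, which encode the serine and arginine rich (SR) splicing factors, and the HNRNP genes, which encode heterogeneous nuclear ribonucleoproteins (hnRNPs), in synovial sarcoma (SS) cells treated with a PI3K inhibitor. Members were the genes with a probe set annotated with exactly 1 symbol that is SRSF and a number or HNRNP and letters or numbers, with pseudogene symbols left out, and the brightest probe set stood for each gene. There were 29 such genes, 10 SRSF and 19 HNRNP, among 19775 genes named by 1 symbol. All 29 lay above the filter for dim probe sets, which 12132 genes passed. HNRNPA3P1 was left out as a pseudogene, and SRSF2, SRSF9 and HNRNPH2, whose probe sets carry several symbols, were not analysed here.

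RNA of 4 established SS cell lines was profiled on 12 Affymetrix arrays (Human Genome U133 Plus 2.0), 1 for each line at each dose. Aska-SS and Yamato-SS carry the fusion gene SS18-SSX1, and SYO-1 and Fuji carry SS18-SSX2. Cells of each line were cultured for 24 h with vehicle (0 µM) or with ZSTK474, a pan-PI3K inhibitor, at 0.3 µM or 3 µM, in RPMI-1640 with fetal bovine serum. The comparison asks how the RNA of splicing regulators differs when PI3K is blocked. The 4 lines served as the replicates, so repeated cultures of 1 line were not measured. The p-values rest on how the changes with dose varied from line to line, pooled over all doses. This spread was drawn toward that of genes of like signal. A gene thus has 1 SE for all comparisons, which is not the spread of its 4 changes in a single comparison. HNRNPAB, for example, has an SE of 0.202 in each, while its log2 changes at 3 µM ranged from -2.51 to -0.87 between lines. Of the SS markers, TLE1, BCL2, CD99, SS18 and SSX1 lay above the filter in these cultures, and SSX2 was not analysed here. Of 7 measured markers of other cell types only PECAM1, an endothelial gene, lay above it, with 1 of its 5 probe sets. The arrays of Fuji stood apart in the actin control: the log2 ratio of the 3′ to the 5′ probe set, a sign of RNA quality, rose between 0 and 3 µM by 0.589 for Fuji but by only 0.12 to 0.209 elsewhere, while that of GAPDH changed by -0.127 to 0.148. The actin ratio rose at each dose in all 4 lines, so it runs along with dose also where Fuji is left out. The part of RNA quality in the results below was not tested.

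SR proteins bind short sequences, mostly in exons, through RNA recognition motifs and recruit the spliceosome through their RS domains, whose phosphorylation by SRPK and CLK kinases sets where they are and what they do. hnRNPs coat nascent transcripts and often oppose SR proteins by blocking splice sites, and many also act in mRNA export, stability and translation. Many of these genes control their own level: the protein promotes a splice form of its own RNA, with a "poison" exon or a spliced 3′ end, that is degraded by nonsense-mediated decay. Akt, which acts downstream of PI3K, is known to signal to SR proteins through SRPK1.

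Promoter sequences are shown for the 5 genes whose signals at 3 µM all lay below those at 0 µM across the 4 lines (values below), HNRNPA2B1, HNRNPAB, SRSF1, SRSF10 and SRSF7. Each run is the 150 bases before the annotated start, 5′ to 3′ on the gene's strand, from RefSeq (GRCh38.p14): HNRNPA2B1 at chr7:26200747-26200896 (minus strand), HNRNPAB at chr5:178204383-178204532 (plus strand), SRSF1 at chr17:58007247-58007396 (minus strand), SRSF10 at chr1:23980328-23980477 (minus strand) and SRSF7 at chr2:38751495-38751644 (minus strand, the first of 2 listed starts). Capitals mark matches, on either strand, to 7 motifs searched: the CCAAT box, the TATA box, the E-box and the cores of forkhead, ETS, E2F and NRF1 sites, whose letters are given with their counts after the sequences. No motif of the 7 contains another.
HNRNPA2B1: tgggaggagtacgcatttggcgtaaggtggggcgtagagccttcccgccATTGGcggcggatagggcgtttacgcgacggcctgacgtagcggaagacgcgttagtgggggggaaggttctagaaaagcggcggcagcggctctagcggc
HNRNPAB: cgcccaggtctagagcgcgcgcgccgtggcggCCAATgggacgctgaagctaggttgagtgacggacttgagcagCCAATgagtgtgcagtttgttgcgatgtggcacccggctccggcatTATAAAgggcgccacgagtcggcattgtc
SRSF1: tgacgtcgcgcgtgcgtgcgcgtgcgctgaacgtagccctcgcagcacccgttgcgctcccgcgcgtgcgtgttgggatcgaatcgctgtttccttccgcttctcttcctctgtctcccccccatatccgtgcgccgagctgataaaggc
SRSF10: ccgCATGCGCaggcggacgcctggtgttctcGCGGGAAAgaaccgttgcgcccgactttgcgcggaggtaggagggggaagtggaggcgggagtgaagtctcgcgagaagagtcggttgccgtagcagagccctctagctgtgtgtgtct
SRSF7: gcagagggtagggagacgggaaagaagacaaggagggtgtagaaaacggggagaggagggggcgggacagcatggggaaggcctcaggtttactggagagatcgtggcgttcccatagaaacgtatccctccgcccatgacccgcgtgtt
HNRNPAB had 2 CCAAT boxes and a TATA box 29 bases before the start, HNRNPA2B1 had 1 CCAAT box, and SRSF10 had an E2F core and an NRF1 core. SRSF1 and SRSF7 had no match to these letters in this window. Over the full windows of 300 bases, of which 28 of 29 members had one (that of HNRNPA1 was missing), the CCAAT box was in 14 members (50%) against 35.7% of the 27305 genes with a window, taking the first window of each. The E-box, searched as CACGTG, was in 6 members (21.4%, against 7.43% of all genes). The TATA box, searched as TATAAA, was in 5 members (17.9%, against 12%), and the ETS core, searched as CCGGAAG, in 5 members (17.9%, against 10.7%). The E2F core, searched as TTTCCCGC, was in 2 members (7.14%, against 1.66%), and the NRF1 core, searched as GCGCATG, in 1 member (3.57%, against 4.67%). The forkhead core, searched as GTAAACA, was in 0 members, against 3.41% of all genes. Here all genes are the 27305 with a window, which include genes that did not pass the filter. These matches are descriptions of the letters only.

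At 3 µM ZSTK474 for 24 h, 13 of the 29 genes fell (44.8%) and 3 rose (10.3%), and the other 13 did not pass (limma, Benjamini-Hochberg adjusted p under 0.05). Over all genes tested, 21.1% fell and 22.6% rose. The median log2 change of the 29 genes was -0.20, beside a median of 0.01 over all genes. The largest falls were those of SRSF7, HNRNPAB and SRSF10, to a fold of 0.363, 0.365 and 0.412 of the level at 0 µM, and the largest rise was that of HNRNPA1, to a fold of 2.06. The value of HNRNPA1 is uncertain, since its other 2 probe sets did not pass, as given below. The arrays measure a transcript's share of the RNA of a whole culture, so fewer expressing cells and less RNA per cell cannot be told apart.

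By family, 6 of the 10 SRSF genes fell (60%), SRSF1, SRSF3, SRSF6, SRSF7, SRSF8 and SRSF10, and 1 rose, SRSF11, with a median log2 change of -0.34 over the family. Of the 19 HNRNP genes, 7 fell (36.8%), HNRNPA2B1, HNRNPA3, HNRNPAB, HNRNPD, HNRNPL, HNRNPM and HNRNPR, and 2 rose, HNRNPA1 and HNRNPUL1, with a median log2 change of -0.13. Whether the 2 families differ was not tested. Within single lines, the median log2 change of the 29 genes was -0.48 in Fuji, -0.21 in Aska-SS, -0.13 in Yamato-SS and -0.09 in SYO-1. Fuji thus had the lowest median and SYO-1 the one nearest to 0. Medians of all genes within each line were not computed here. Of all genes called, Fuji had the largest fall in 48.8% of those that fell and the largest rise in 49.2% of those that rose.

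**Figure D1:**
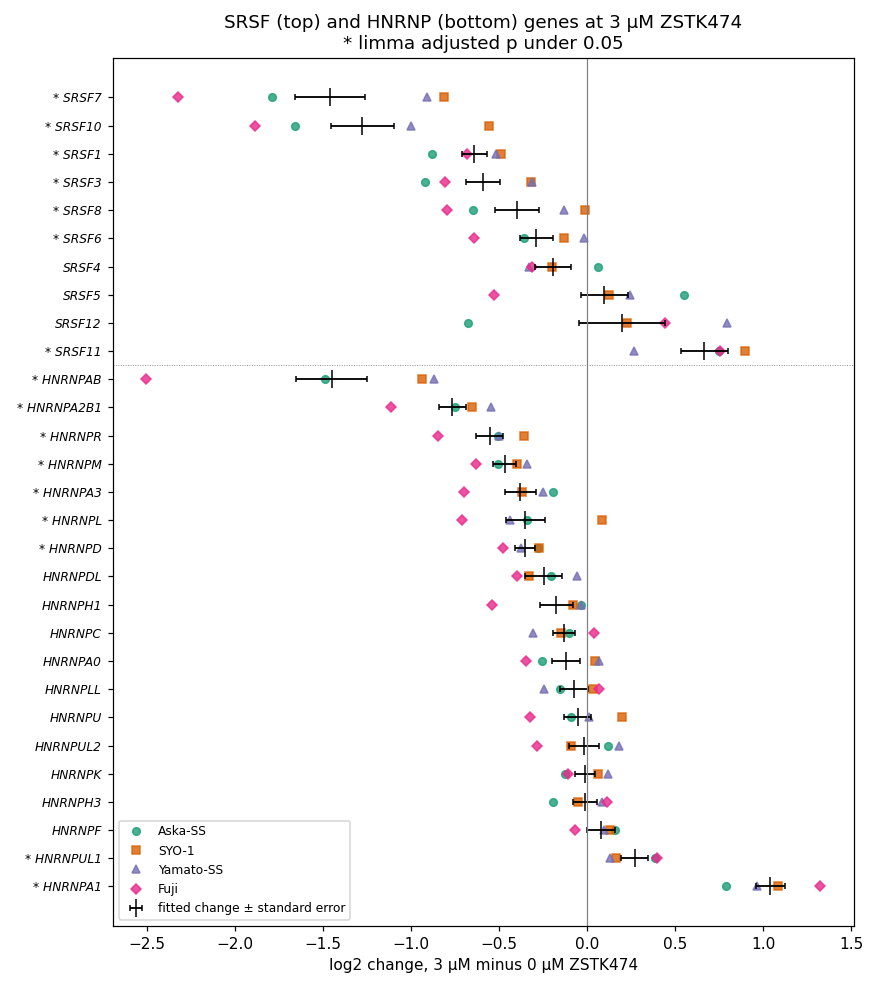
Log2 change at 3 µM against 0 µM ZSTK474 of 10 SRSF and 19 HNRNP genes, with 1 coloured point per cell line and the fitted change ± its standard error in black. An asterisk marks an adjusted p under 0.05: 13 genes fell, 3 rose, and the Fuji points lie farthest to the left for most of the genes that fell.

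The fall of SRSF7, an SR protein with a zinc knuckle that acts in splicing, polyadenylation and export, was among the largest falls. Its rank depends on the probe set: its fall was within 1 SE of that of HNRNPAB, and without _x_at probe sets, explained below, it was -1.09, behind HNRNPAB and SRSF10. Signals of the 4 lines are listed from here on in the order Aska-SS, then SYO-1, then Yamato-SS, then Fuji. The log2 signal of SRSF7 was 13.09, 13.34, 13.41 and 13.50 at 0 µM, 12.29, 13.40, 13.37 and 12.50 at 0.3 µM, and 11.30, 12.52, 12.50 and 11.17 at 3 µM. All 4 signals at 3 µM were below the lowest at 0 µM, and at 0.3 µM only Aska-SS and Fuji had moved visibly down while SYO-1 and Yamato-SS stayed near their starting level. The fitted log2 change at 3 µM was -1.46 (SE 0.198, adjusted p = 0.00014). In the fit over probe sets, 201129_at and 211439_at of SRSF7 fell as well (-1.09 and -0.93), while 213649_at did not pass (0.21, adjusted p = 0.181).

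SRSF10, an SR protein that turns into a general splicing repressor when dephosphorylated, fell in the same way. Its log2 signal was 11.30, 11.79, 12.18 and 11.71 at 0 µM, 11.11, 11.71, 12.02 and 10.95 at 0.3 µM, and 9.64, 11.23, 11.18 and 9.82 at 3 µM. The groups at 0 and 3 µM did not overlap, although SYO-1 and Yamato-SS at 3 µM came close to Aska-SS at 0 µM. The fitted log2 change was -1.28 (SE 0.179, adjusted p = 0.000176).

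SRSF1, the prototype SR protein and a known oncogene product, had log2 signals of 13.76, 14.06, 13.97 and 13.76 at 0 µM, 13.42, 14.02, 13.84 and 13.42 at 0.3 µM, and 12.88, 13.57, 13.45 and 13.08 at 3 µM. Every line stepped down at each dose and the groups at 0 and 3 µM did not overlap. The fitted log2 change was -0.64 (SE 0.0713, adjusted p = 4.01e-05). SRSF3, the smallest SR protein, which also adapts mRNA for export, had log2 signals of 13.76, 14.18, 13.97 and 14.03 at 0 µM, 13.48, 14.05, 13.97 and 13.62 at 0.3 µM, and 12.84, 13.86, 13.65 and 13.22 at 3 µM. It was lower in 4 of 4 lines, most in Aska-SS and Fuji, but SYO-1 at 3 µM stayed above Aska-SS at 0 µM, so the groups overlapped. Its log2 change was -0.59 (SE 0.0975, adjusted p = 0.000497). For both SRSF1 and SRSF3 another probe set rose, as given below.

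SRSF8, a close relative of SRSF2, and SRSF6 fell by less, with log2 changes of -0.40 (adjusted p = 0.0225) and -0.29 (adjusted p = 0.028). Both were lower in 4 of 4 lines, but in SYO-1 the change of SRSF8 and in Yamato-SS that of SRSF6 was close to 0. Neither call held without Aska-SS (log2 changes of -0.31 and -0.27, adjusted p = 0.144 and 0.122) or without Fuji (-0.27 and -0.17, adjusted p = 0.127 and 0.144). Both calls were also lost with no filter on dim probe sets and with only the arrays of the 2 doses compared.

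SRSF11, an SR-related protein of the early spliceosome, went the other way. Its log2 signal was 12.38, 12.67, 12.50 and 12.82 at 0 µM, 12.15, 12.96, 12.81 and 13.20 at 0.3 µM, and 13.13, 13.57, 12.76 and 13.57 at 3 µM. All lines were higher at 3 than at 0 µM, but Yamato-SS at 3 µM lay below Fuji at 0 µM, so the groups overlapped, and Aska-SS was lower at 0.3 than at 0 µM. The log2 change at 3 µM was 0.67 (SE 0.132, adjusted p = 0.00168). In the fit over probe sets, 213742_at of SRSF11 rose as well (0.48, adjusted p = 0.0148), while 200685_at did not pass (0.09, adjusted p = 0.5). SRSF4, SRSF5 and SRSF12 did not pass. The log2 change of SRSF4 was -0.20, with a 95% interval of -0.42 to 0.03. That of SRSF5 was 0.10, with an interval of -0.20 to 0.39, and its lines pointed both ways, with 0.55 in Aska-SS and -0.53 in Fuji. SRSF12, an antagonist of other SR proteins, was measured least precisely, with a log2 change of 0.20 and an interval of -0.34 to 0.73.

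**Figure D2:**
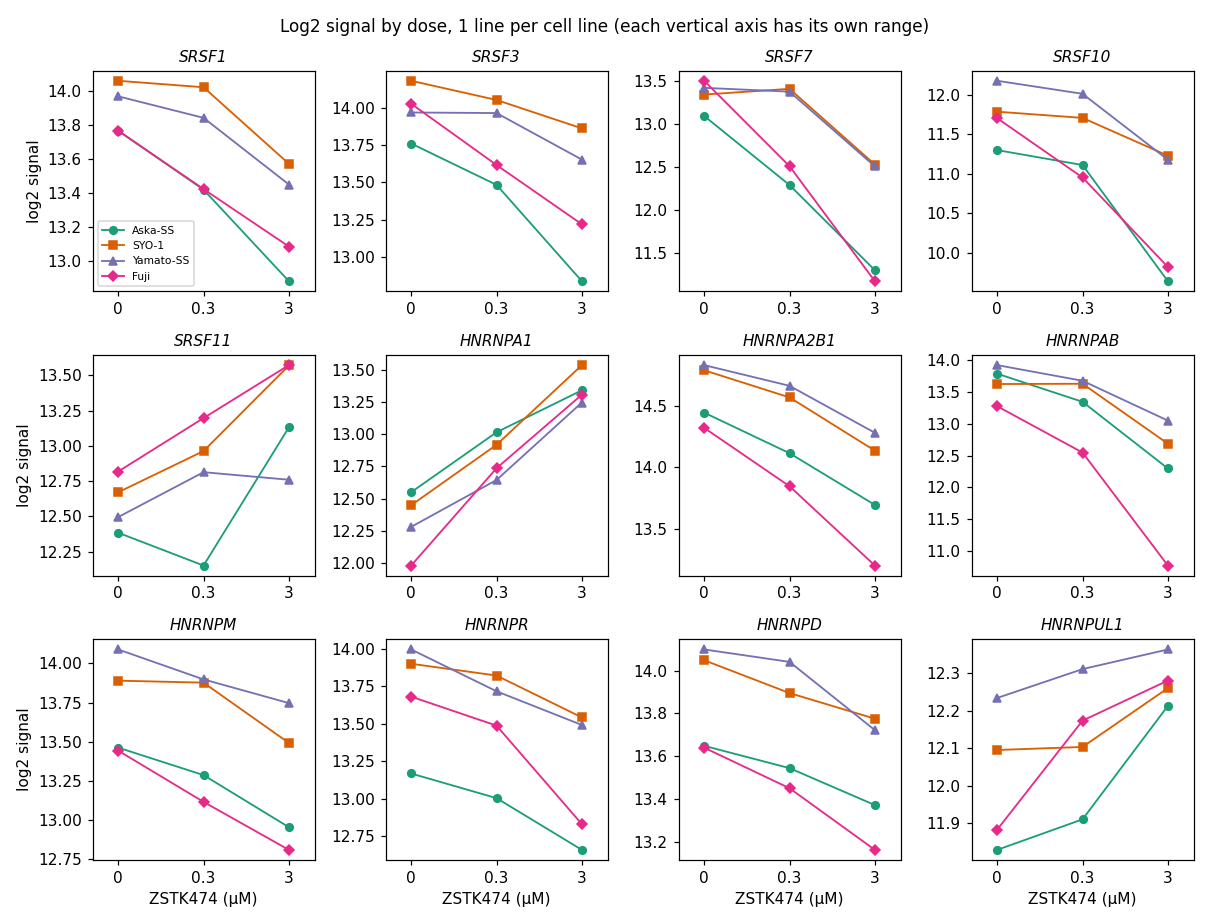
Log2 signal of 12 SRSF and HNRNP genes at 0, 0.3 and 3 µM ZSTK474, doses at equal spacing, with 1 coloured line per cell line and no averaging. HNRNPA1 climbs at each dose in all 4 lines, while SRSF1 and HNRNPA2B1 descend at each dose in all 4, and SRSF7 descends at 0.3 µM only in Aska-SS and Fuji by more than 0.1.

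Among the hnRNPs of the A/B group, which bind exonic and intronic silencers, HNRNPA2B1 had the smallest adjusted p of the genes that fell. Its log2 signal was 14.44, 14.79, 14.83 and 14.32 at 0 µM, 14.11, 14.57, 14.66 and 13.85 at 0.3 µM, and 13.69, 14.13, 14.28 and 13.20 at 3 µM. Each line fell at each dose, and the highest signal at 3 µM, in Yamato-SS, was just below the lowest at 0 µM, in Fuji. The log2 change was -0.77 (SE 0.0766, adjusted p = 2.35e-05) at 3 µM. Other probe sets of this gene rose, as given below, and with its probe sets averaged, in place of the brightest, the log2 change was 0.10 (adjusted p = 0.282).

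HNRNPAB, which binds RNA and DNA and has a part in mRNA transport and stability, had log2 signals of 13.79, 13.62, 13.92 and 13.28 at 0 µM, 13.34, 13.63, 13.68 and 12.55 at 0.3 µM, and 12.30, 12.69, 13.05 and 10.77 at 3 µM. The groups at 0 and 3 µM did not overlap, and Fuji at 3 µM lay far below the other lines. The log2 change was -1.45 (SE 0.202, adjusted p = 0.000167), with -2.51 for Fuji and -1.49 to -0.87 elsewhere. HNRNPAB had only 1 probe set, so no other could be set beside it. HNRNPA3 fell too, with a log2 change of -0.38 (adjusted p = 0.00421).

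HNRNPA1, the best known splicing repressor of the A/B group, had log2 signals of 12.55, 12.45, 12.28 and 11.98 at 0 µM, 13.01, 12.92, 12.64 and 12.74 at 0.3 µM, and 13.34, 13.54, 13.25 and 13.31 at 3 µM. All lines rose at each dose and all signals at 3 µM lay above all at 0 µM. The log2 change at 3 µM was 1.04 (SE 0.0842, adjusted p = 8.3e-06). This value is uncertain: its probe set is of the _x_at kind, whose probes can match other transcripts, and HNRNPA1 has many near-identical pseudogene copies. The other 2 probe sets of HNRNPA1 did not pass, with log2 changes of -0.21 (adjusted p = 0.492) and 0.31 (adjusted p = 0.305) in the fit over probe sets. Both were far dimmer, with mean log2 signals of 7.72 and 7.51 against 12.83, and less precise (SE 0.225 and 0.227). In all, 6 of the 29 genes were represented by an _x_at probe set (HNRNPA1, HNRNPC, HNRNPDL, HNRNPU, SRSF7 and SRSF8). Without probe sets of this kind, SRSF7 and SRSF8 still passed, with log2 changes of -1.09 and -0.28, and HNRNPA1 did not.

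HNRNPM, which binds GU-rich sequence in introns and near exons, had log2 signals of 13.46, 13.89, 14.09 and 13.44 at 0 µM, 13.29, 13.88, 13.90 and 13.12 at 0.3 µM, and 12.96, 13.49, 13.75 and 12.81 at 3 µM. The lines kept their own levels and each fell, so the groups overlapped while the paired differences all pointed down. The log2 change was -0.47 (SE 0.0651, adjusted p = 0.000159), and the call ended when its probe sets were averaged (-0.10, adjusted p = 0.443). In the fit over probe sets, one nearly as bright (200072_s_at) fell as well (-0.50, adjusted p = 0.00162). The 2 dimmer ones above the filter did not pass (0.31 and 0.28). HNRNPD, also called AUF1, which binds AU-rich elements and promotes decay of the mRNAs that carry them, behaved alike, with 13.65, 14.05, 14.10 and 13.64 at 0 µM, 13.54, 13.90, 14.04 and 13.45 at 0.3 µM, and 13.37, 13.78, 13.72 and 13.16 at 3 µM. It stepped down at each dose in each line, with overlapping groups and a log2 change of -0.35 (SE 0.0565, adjusted p = 0.000416). Another probe set of HNRNPD rose, as given below. Its paralog HNRNPDL, the neighbouring gene on chromosome 4, was lower in 4 of 4 lines but did not pass (log2 change -0.25, adjusted p = 0.0715), though it did without Yamato-SS (-0.31, adjusted p = 0.0179). HNRNPDL also passed with no quantile normalization, and another of its probe sets rose, as given below.

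HNRNPR, a relative of SYNCRIP, fell with a log2 change of -0.55 (SE 0.0785, adjusted p = 0.000187). HNRNPL, which binds CA repeats, had a log2 change of -0.35 (adjusted p = 0.0208) and was lower in Aska-SS, Yamato-SS and Fuji but not in SYO-1, where it was 0.08 higher. Its call was lost without Aska-SS (-0.36, adjusted p = 0.079), without Yamato-SS (-0.32, adjusted p = 0.0861) or without Fuji (-0.23, adjusted p = 0.116). The call of HNRNPL was also lost with no filter on dim probe sets, with array weights and with only the arrays of the 2 doses compared. HNRNPUL1, a relative of the scaffold protein HNRNPU, had log2 signals of 11.83, 12.10, 12.23 and 11.88 at 0 µM, 11.91, 12.10, 12.31 and 12.17 at 0.3 µM, and 12.21, 12.26, 12.36 and 12.28 at 3 µM. It was higher at 3 than at 0 µM in 4 of 4 lines, with overlapping groups and a log2 change of 0.27 (SE 0.0752, adjusted p = 0.0121). That call was lost without Aska-SS (0.23, adjusted p = 0.0753), without Fuji (0.23, adjusted p = 0.0501), with no quantile normalization (0.17, adjusted p = 0.0852) and with only the arrays of these 2 doses (0.27, adjusted p = 0.0632). The other probe set of HNRNPUL1 did not pass in the fit over probe sets (0.16, adjusted p = 0.217).

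The other 9 HNRNP genes beside HNRNPDL did not pass. They include HNRNPC, which binds U tracts, HNRNPF, HNRNPH1 and HNRNPH3, which bind runs of G, HNRNPK, which binds C-rich sequence, HNRNPA0, HNRNPLL, a relative of HNRNPL, HNRNPU and HNRNPUL2. Their log2 changes ran from -0.18 for HNRNPH1 to 0.08 for HNRNPF. The 95% interval was -0.14 to 0.11 for HNRNPK, -0.16 to 0.14 for HNRNPH3 and -0.22 to 0.11 for HNRNPU, and that of HNRNPH1 reached from -0.38 to 0.03. These intervals hold for the brightest probe set of a gene only, and another probe set of HNRNPU fell, as given below.

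Signals of the groups did not overlap in 5 members with 3 µM below 0 µM, those whose promoters are shown above, and in 1 with 3 µM above 0 µM, HNRNPA1. That of HNRNPA1 holds for its _x_at probe set only. Of all genes tested, 6.03% were separated downwards and 5.3% upwards.

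Fuji had the largest fall of the 4 lines in 11 of the 13 members that fell (84.6%), and Aska-SS in the other 2, SRSF1 and SRSF3. Over all 2561 genes that fell, Fuji had the largest fall in 48.8% and Aska-SS in 26.5%. Without Fuji, whose actin ratio moved most, 11 members fell and 3 rose, and 12 of the 16 calls were kept (HNRNPL, HNRNPUL1, SRSF6 and SRSF8 were lost, and HNRNPC with -0.19 and SRSF5 with 0.31 passed in addition). Without Aska-SS 10 fell and 2 rose, with the loss of the same 4 genes.

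At 0.3 µM only HNRNPA1 rose and HNRNPA2B1 fell, 1 gene of 29 in each direction (3.45%), beside 4.57% of all genes that rose and 3.35% that fell. HNRNPA1 had a log2 change of 0.51 (SE 0.0842, adjusted p = 0.0104), higher in 4 of 4 lines, and HNRNPA2B1 one of -0.30 (SE 0.0766, adjusted p = 0.0378), lower in 4 of 4 lines. Leaving out any 1 of the 4 lines ended the call of HNRNPA2B1, with adjusted p = 0.174 without Aska-SS, 0.0805 without Fuji, 0.0949 without SYO-1 and 0.0589 without Yamato-SS. That of HNRNPA1 was lost without Aska-SS (0.53, adjusted p = 0.0774). The call of HNRNPA1 was also lost without _x_at probe sets and under other settings given at the end. SRSF1 came near the threshold (log2 change -0.21, adjusted p = 0.0846), and SRSF7 and HNRNPAB had log2 changes of -0.44 and -0.35 with adjusted p = 0.18 and 0.287. The median log2 change of the 29 genes was -0.06.

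From 0.3 to 3 µM, 10 members fell (34.5%) and 2 rose (6.9%), beside 8.09% and 7.25% of all genes. This comparison shares its arrays with the other 2. Those that fell were SRSF1, SRSF3, SRSF7, SRSF10, HNRNPA2B1, HNRNPA3, HNRNPAB, HNRNPD, HNRNPM and HNRNPR, and those that rose were HNRNPA1 and SRSF11. The largest step was that of HNRNPAB (log2 change -1.10, SE 0.202, adjusted p = 0.0057), followed by SRSF7 (-1.02, adjusted p = 0.00737) and SRSF10 (-0.98, adjusted p = 0.00556). HNRNPA1, by its _x_at probe set, rose by nearly the same amount in both steps, 0.51 from 0 to 0.3 µM and 0.53 from 0.3 to 3 µM. The number that fell was 6 without Aska-SS and 6 without SYO-1, and the number that rose was 1 without Aska-SS, SYO-1 or Fuji. Of the 16 members called at 3 against 0 µM, 15 had their mean at 0.3 µM between those of the other doses (93.8%, and 96% of all called genes).

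The 29 genes were measured by 115 probe sets, of which 102 lay above the filter, and a separate fit over all 27306 such probe sets asked whether those of 1 gene moved together. Of the 102, 42 fell, 11 rose and 49 did not pass, beside 19.8% of all probe sets that fell and 19.6% that rose. Of 27 genes with at least 2 probe sets above the filter, 4 had all of them passing the same way, HNRNPA3, HNRNPR, SRSF6 and SRSF10. SRSF10 had the most probe sets of these 4 genes, with 5 of 5 lower and log2 changes of -1.84 to -0.85. Another 4 genes, HNRNPA2B1, HNRNPD, SRSF1 and SRSF3, had probe sets that passed in opposite directions. Neither kind of gene was counted over all genes, so whether these counts are particular to the members was not tested. Where on the transcripts the probe sets lie was not analysed here.

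**Figure D3:**
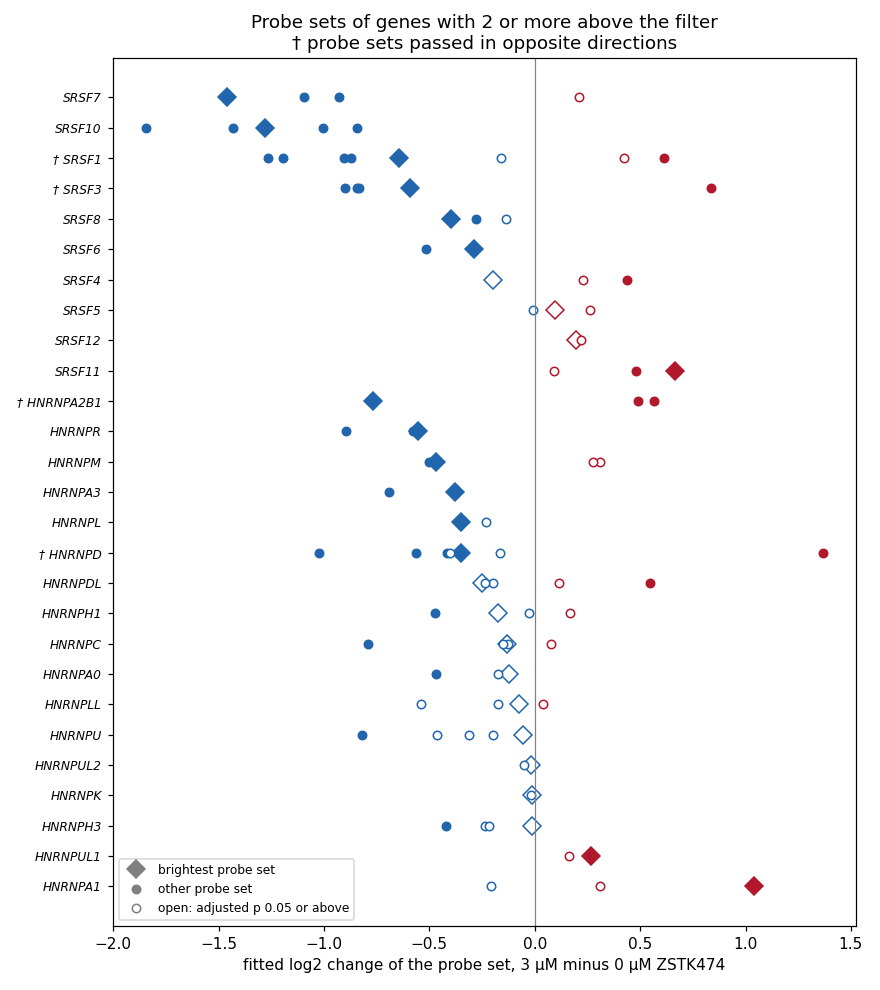
Fitted log2 change at 3 µM against 0 µM ZSTK474 of each probe set above the filter, for the 27 genes with at least 2, blue where lower and red where higher. Filled symbols passed at an adjusted p under 0.05 and diamonds are the brightest probe set of a gene: 4 genes marked with a dagger have filled symbols on both sides of 0.

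For HNRNPA2B1, the brightest probe set (205292_s_at) fell and 2 others, 225107_at and 225932_s_at, rose, with log2 changes of 0.57 (SE 0.11, adjusted p = 0.00155) and 0.49 (SE 0.0977, adjusted p = 0.00186). The log2 signal of 225107_at was 9.31, 9.92, 9.97 and 9.04 at 0 µM, 9.47, 10.22, 9.95 and 9.56 at 0.3 µM, and 9.93, 10.58, 10.37 and 9.62 at 3 µM. All 4 lines were higher at 3 than at 0 µM for this probe set, while all 4 were lower for the brightest one.

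For HNRNPD, 213359_at rose with a log2 change of 1.37 (SE 0.175, adjusted p = 0.000104), from 8.62, 8.03, 8.58 and 7.78 at 0 µM through 9.03, 8.73, 8.59 and 9.07 at 0.3 µM to 9.96, 9.60, 9.43 and 9.47 at 3 µM. Its signals at 3 µM lay above all those at 0 µM. Of the other 6 probe sets of HNRNPD above the filter, 4 fell, and the largest of these falls was that of 221480_at (log2 change -1.02, adjusted p = 1.12e-05).

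For SRSF1, 5 of 8 probe sets fell, with log2 changes of -1.26 to -0.64, and 226419_s_at rose with 0.62 (SE 0.162, adjusted p = 0.00957). Its signal was 8.04, 9.94, 7.62 and 8.28 at 0 µM, 8.66, 10.05, 7.77 and 8.36 at 0.3 µM, and 8.50, 10.20, 8.45 and 9.20 at 3 µM. The lines differed more from each other than the doses did, SYO-1 being highest throughout, and each line was higher at 3 than at 0 µM. For SRSF3, 4 of 5 probe sets fell, with log2 changes of -0.90 to -0.59, and 232392_at rose with 0.84 (SE 0.253, adjusted p = 0.0194). Its signal was 7.46, 6.02, 5.08 and 7.01 at 0 µM, 7.29, 5.46, 5.43 and 7.40 at 0.3 µM, and 7.78, 6.42, 6.61 and 8.11 at 3 µM, with Yamato-SS at 0 µM the lowest.

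**Figure D4:**
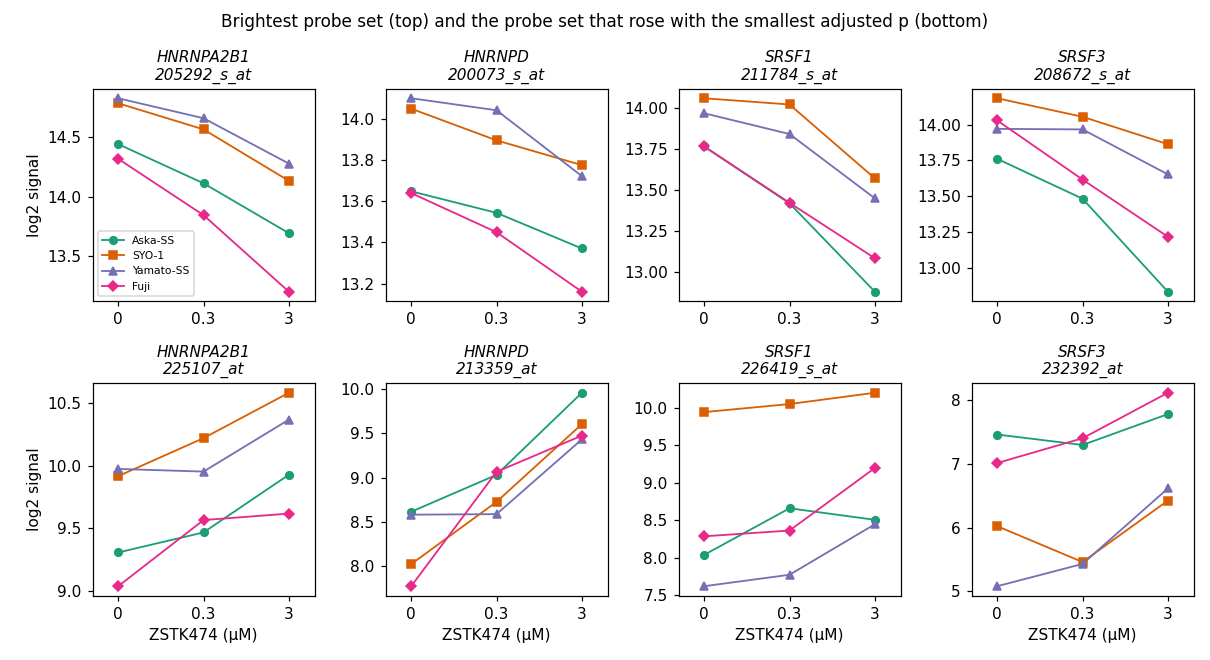
Log2 signal by dose of the brightest probe set (top row) and of the probe set that rose with the smallest adjusted p (bottom row) for HNRNPA2B1, HNRNPD, SRSF1 and SRSF3, with 1 coloured line per cell line and a separate vertical range in each panel. From 0 to 3 µM the top row falls in all 4 cell lines and the bottom row rises in all 4.

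Probe sets of some members called as not passed also moved. A probe set of HNRNPDL rose (0.55, adjusted p = 0.00184) and one of SRSF4 rose (0.44, adjusted p = 0.0233), while 1 probe set fell in each of HNRNPA0 (-0.47), HNRNPC (-0.79), HNRNPH1 (-0.47), HNRNPH3 (-0.42) and HNRNPU (-0.82). With all probe sets of a gene averaged, HNRNPA0, HNRNPC, HNRNPH3 and HNRNPU passed as lower, and HNRNPA2B1 and HNRNPM no longer passed.

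Levels also differed between lines by amounts above the dose effects for some members. The mean log2 signal over the 3 doses spanned 2.15 between lines for SRSF8, whose signals were 12.53 in Aska-SS and 12.29 in Fuji but 10.12 in SYO-1 and 10.56 in Yamato-SS at 0 µM. It spanned 1.67 for SRSF12, 1.39 for SRSF6 and 1.36 for HNRNPUL2, whose fitted dose effects were smaller than these spans. HNRNPK and HNRNPC were the most even, with spans of 0.13 and 0.15. These spans are descriptions of single arrays per line and dose, with no test.

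The kinases of SR proteins moved in both directions at 3 µM. CLK1 and CLK4, nuclear kinases that phosphorylate the RS domain, rose with log2 changes of 1.45 (SE 0.163, adjusted p = 4.37e-05) and 1.19 (SE 0.171, adjusted p = 0.000209), each in 4 of 4 lines. CLK1 also rose at 0.3 µM (0.63, adjusted p = 0.039). The cytoplasmic kinase SRPK1 fell (-0.52, SE 0.0754, adjusted p = 0.000215) and its paralog SRPK2 rose (0.46, SE 0.107, adjusted p = 0.00466). CLK2, CLK3 and SRPK3 did not pass, with log2 changes of 0.28, 0.08 and -0.37. With their phosphatases and import receptors, 2 of 14 measured genes of this list fell (14.3%, beside 21.1% of all genes tested), among them PPP1CA, a catalytic subunit of protein phosphatase 1 (-0.31, adjusted p = 0.0099), and 4 rose (28.6%, beside 22.6% of all genes), with a median log2 change of 0.15. These shares lie near those of all genes. The call of PPP1CA was lost without SYO-1 (-0.25, adjusted p = 0.0599) and without Fuji (-0.26, adjusted p = 0.0514), which left 1 gene of the list lower, and CLK2 passed without Fuji (0.38, adjusted p = 0.0292).

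Of 17 other factors with an RS domain, 6 fell (35.3%) and 2 rose (11.8%), with a median log2 change of -0.15, beside 21.1% and 22.6% of all genes and their median of 0.01. TRA2B, an SR-like activator (-0.94, adjusted p = 0.00012), and SRRM1, a coactivator (-0.53, adjusted p = 0.000432), had the smallest adjusted p of those that fell, and LUC7L3 (0.56, adjusted p = 0.00081) and SREK1 (0.24, adjusted p = 0.0319) were those that rose. That of SREK1 was lost without Aska-SS (0.29, adjusted p = 0.0556), without SYO-1 (0.23, adjusted p = 0.117) and without Fuji (0.17, adjusted p = 0.142), and with averaged probe sets LUC7L3 had a log2 change of 0.10 (adjusted p = 0.456). Of 30 other hnRNPs and RNA-binding regulators, 7 fell (23.3%) and 8 rose (26.7%), with a median of 0.04, shares close to the 21.1% and 22.6% of all genes, and 4 fell without Aska-SS. SYNCRIP (-0.52, adjusted p = 7.24e-05) and ELAVL1, which stabilizes AU-rich mRNAs (-0.41, adjusted p = 0.000201), fell. PCBP2, a poly(C) binding protein (0.80, adjusted p = 2.79e-05), and MBNL2, a muscleblind splicing regulator (1.07, adjusted p = 4.16e-05), rose.

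Of 50 core spliceosome genes, 26 fell (52%) and 5 rose (10%), with a median of -0.31, beside 21.1% and 22.6% of all genes. Those with the smallest adjusted p were the Sm protein SNRPG (-1.02, adjusted p = 8.3e-06) and the U2 protein SNRPA1 (-1.16, adjusted p = 1.47e-05), which fell, while SF3A2 (0.65, adjusted p = 0.00111) and CDC5L (0.38, adjusted p = 0.00126) rose. The number of these genes that rose was 3 without Aska-SS, Yamato-SS or Fuji, and CDC5L no longer passed with averaged probe sets (0.15, adjusted p = 0.218). Of 9 measured genes of nonsense-mediated decay and the exon junction complex, 4 fell (44.4%) and 0 rose, with a median of -0.29, beside the same shares of all genes, and 1 rose without Yamato-SS. The exon junction proteins MAGOHB (-1.61, adjusted p = 1.05e-05) and EIF4A3 (-0.51, adjusted p = 0.00161) fell. Whether the shares of these lists differ from those of the SRSF and HNRNP genes was not tested.

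**Figure D5:**
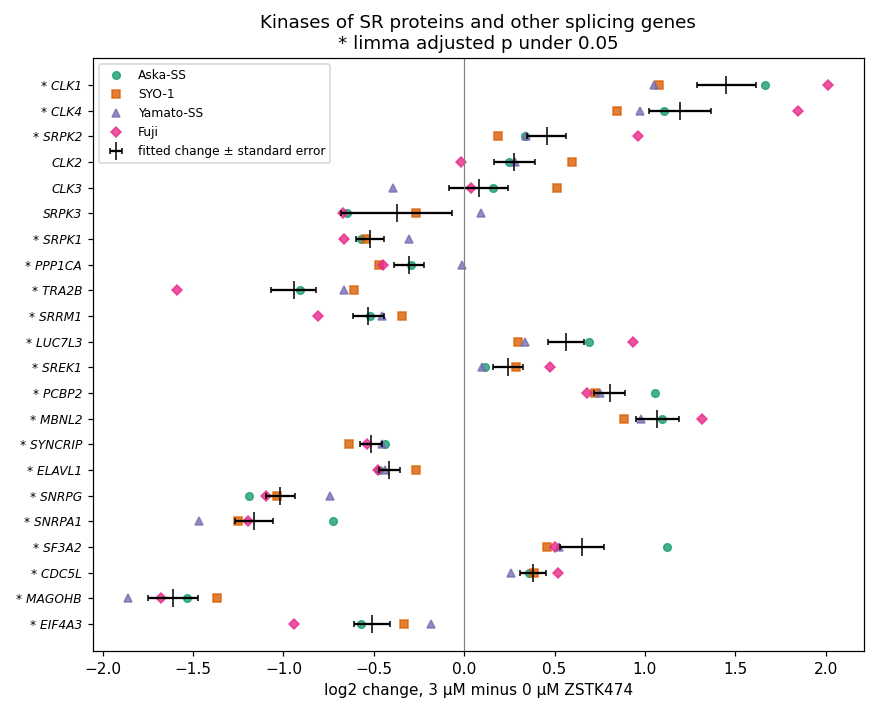
Log2 change at 3 µM against 0 µM ZSTK474 of kinases of SR proteins and of the named genes of the other splicing lists, with 1 coloured point per cell line and the fitted change ± its standard error in black. An asterisk marks an adjusted p under 0.05: CLK1, CLK4 and SRPK2 lie to the right of 0 in all 4 lines and SRPK1 to the left in all 4.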

How the data were processed

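RNA of 4 synovial sarcoma cell lines at 3 doses was measured on 12 arrays. The deposited values are linear signal intensities of 54675 probe sets that the authors made with MAS5 (the version was not given in the sources used here). All arrays have a 2% trimmed mean of 500.1, and the methods name quantile normalization, so it was applied here. Signals were raised to the 20th percentile (log2 3.60), log2 values were taken, 62 control probe sets were dropped, and probe sets with a mean above the median (log2 6.03) were kept. Names came from the platform annotation, and 41097 probe sets have 1 symbol, 1801 several and 11777 none. The brightest probe set stood for a gene.

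Tests used limma 3.58.1 in R 4.3.3 with dose as a factor, cell line as a block and a mean-variance trend, fitted on 12132 genes, with Benjamini-Hochberg adjustment and calls at 0.05. Replicates are numbered by cell line, and deviations from dose means correlated with r = 0.828 to 0.931 within a line and -0.461 to -0.089 between lines. Subtracting the dose means makes correlations between lines negative on average, so their sign says nothing about the lines. The fit was tested on simulated data. The members and gene lists were chosen with earlier results of these data known. Every member was named, with values in every sample for the 6 falling and up to 6 rising members (3 rose) with the smallest adjusted p at 3 µM that moved the same way in 4 of 4 lines, those that passed at 0.3 µM and those with probe sets called in opposite directions. Of each other list, the 2 genes with the smallest adjusted p in each direction and all SRPK and CLK genes were named. The alternatives kept the deposited scaling, took log2 of the value plus 16 with no floor, or used no filter or one at the 65th percentile, the mean of probe sets, no block, array weights, the arrays of 2 doses only and each line left out, and probe sets of the _x_at kind left out was added after the data were seen.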

Additional observations from a re-analysis of the deposited data

Results flagged for a closer look

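In 58 tests of whether 1 cell line stood apart from the other 3, over the changes of the 29 genes at both doses, 3 did. Chance alone marks about 1 group in 20, so this number is near what chance gives. HNRNPH1 at 3 µM had a log2 change of -0.54 for Fuji, while the other lines had -0.08 to -0.04. SRSF10 at 0.3 µM had one of -0.75 in Fuji, against -0.19 to -0.08 in the others. SRSF11 at 0.3 µM had one of -0.23 in Aska-SS, against 0.29 to 0.38 in the others. Fuji also had the largest rise of the actin 3′ to 5′ ratio at 3 µM (0.589), whose part in the change of HNRNPH1 was not tested.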

How the results depend on the processing

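Of the 16 members called at 3 against 0 µM, 12 to 16 were kept under each alternative with the block, and 1 without it, HNRNPA1. The fit without the block of cell lines, which leaves the differences between lines in the spread, called 0 lower (7 at an unadjusted p under 0.05) and 1 higher at 3 against 0 µM, 0 and 0 at 0.3 against 0 µM (0 and 1 unadjusted), and 0 and 0 at 3 against 0.3 µM (5 and 1 unadjusted). With 1 line left out, the counts lower and higher ranged from 10 to 13 and from 2 to 3 at 3 against 0 µM, from 0 to 0 and from 0 to 1 at 0.3 against 0 µM, and from 6 to 9 and from 1 to 2 at 3 against 0.3 µM. The 1 gene lower at 0.3 µM became 0 with no quantile normalization, no filter or the mean of probe sets, and 2 with array weights. The 1 gene higher became 0 with no filter, the mean of probe sets or no _x_at probe sets. At 3 against 0.3 µM, the 10 lower became 5 with the mean of probe sets, and the 2 higher became 1 with no quantile normalization, no filter or no _x_at probe sets, and 0 with the mean of probe sets. Directions reversed for HNRNPA1 without _x_at probe sets (-0.21 at 3 µM and -0.15 at 0.3 µM), where another, far dimmer probe set stands for it. They also reversed for HNRNPA2B1 with the mean of probe sets (0.10 at 3 µM and 0.079 at 0.3 µM), where probe sets of opposite change are averaged. The causes of the other moves were not tested. The median change of all genes at 3 µM was at most 0.09 under any scaling. The number of arrays limits what can be detected.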
